A study of Caenorhabditis elegans with 4 samples.

Results

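The central region of chromosome V of Caenorhabditis elegans carried 490 of the 5502 LIN-13 binding regions (peaks) mapped in embryos, which is 8.91% of the list on 10.6% of the length spanned. A peak was counted here when its midpoint lay from position 5897000 to below 16550000 of chromosome V (WormBase WS180), the stretch between the boundaries of the low-recombination domain. The choice used position only and no q-value. Each worm autosome has such a central domain, where genes that are conserved and broadly expressed are common and crossing over is rare, flanked by arms that recombine often and are rich in repeats. The arms of V are also known for large families of chemoreceptor genes. LIN-13, a zinc-finger protein of the nucleus, belongs to the class B synthetic multivulva group. With the Rb homologue LIN-35 and the heterochromatin protein HPL-2, this group keeps vulval fates, germline genes and other developmental programmes switched off where they do not belong.

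The peaks come from embryos of strain OP51, grown at 20 °C. These hermaphrodite worms have the unc-119 (ed3) mutation on III. They also carry wgIs73, a transgene made by bombardment that joins lin-13 to the tags TY1, EGFP and FLAG and supplies unc-119 (+). No mutation of the resident lin-13 gene is listed, so the tagged copy adds to it, and ChIP and input come from the same strain. DNA precipitated with a goat antibody against GFP (ChIP, 2 libraries) was set by the authors against sonicated chromatin taken before precipitation (input, 2 libraries), and all 4 libraries ended in 1 combined peak list. Neither read totals nor values for single libraries are in that list. No value below therefore has a replicate error, no test between groups was made, and differences are described with intervals that cover counting error only. Peaks cluster and are not independent, so these intervals are narrower than the true uncertainty. Genes at the peaks are not named, because the only gene table used is of another assembly.

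LIN-13 peaks were sparser in the centre of V than in its arms, and their density was within the range of the other chromosome centres. The density was 46.0 peaks per Mb over the 10.653 Mb of the centre of V, against 46.3 per Mb in the centres of the other 5 chromosomes together. The arms of V held 681 peaks, or 66.6 per Mb. The ratio of the centre to the arms of V was 0.691, with an interval of 0.614 to 0.777 from the exact binomial interval of the share of peaks. Of all 1171 peaks on V, 41.8% (Clopper-Pearson 95% interval 39.0 to 44.7) lay in the centre, which makes up 51.03% of the length of V up to its last peak.

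Whole 1 Mb windows of the centre held between 35 and 54 peaks. In 10 windows of 1 Mb laid from its left boundary, the counts were 54, 35, 42, 49, 45, 53, 46, 50, 49 and 52 peaks, a mean of 47.5 ± 5.76 (SD over windows). The lowest count was in the window from 6897000 to 7896999 and the highest in the one beside it on the left. The last 0.653 Mb of the centre, on the right, was sparser, with 15 peaks or 23.0 per Mb. Split into 3 stretches of 3.551 Mb, the centre held 156 peaks on the left, 172 in the middle and 162 on the right, with median widths of 315.5, 325.5 and 345.5 bp.

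The rise in density towards the arms did not fall on the boundaries. On the left there was no step: 54 peaks lay in the Mb inside the boundary and 42 in the Mb outside it. Over 2 Mb the counts were 89 inside and 102 outside. On the right, the low density at the end of the centre went on into the arm, with 29 peaks in the last Mb inside and 25 in the first Mb outside. Beyond that the windows of the right arm held 85, 115 and 114 peaks. The 5 whole windows of the left arm held 35 to 73 peaks, a range that includes every whole window of the centre, while the 4 of the right arm held 25 to 115. The left and the right arm thus differed from the centre in unlike degree, at 54.1 and 83.6 peaks per Mb.

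**Figure D1:**
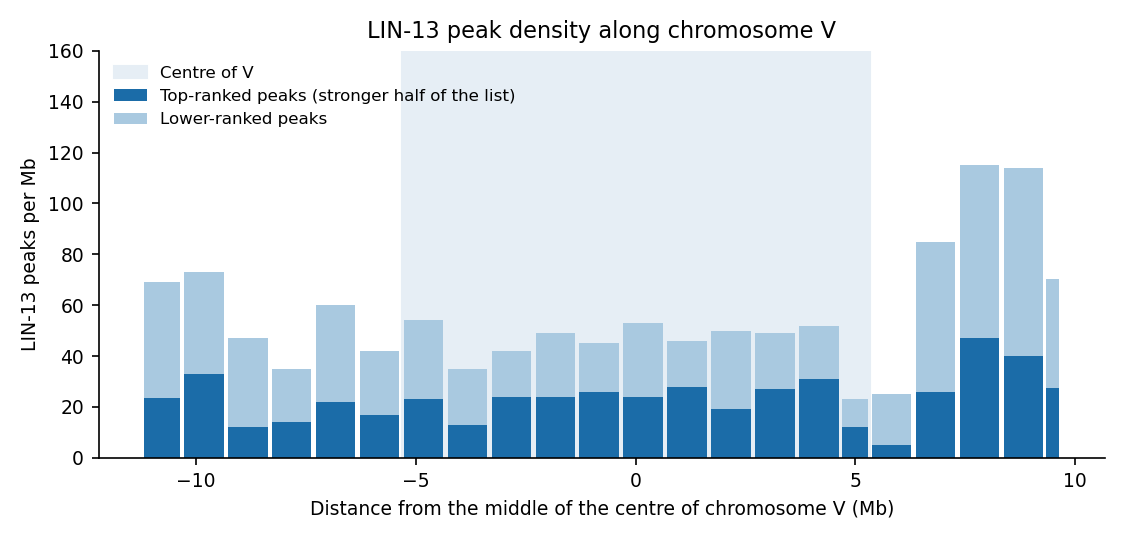
LIN-13 peaks per Mb (vertical axis) in windows along chromosome V (horizontal axis, distance in Mb from the middle of its centre). Dark bars are top-ranked peaks, light bars stacked on them lower-ranked peaks, and the shaded band is the centre. Whole windows of the centre hold 35 to 54 peaks, and the windows at the far right reach 115.

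The nearest peaks on each side of the boundaries were unremarkable in strength. At the left boundary the first peak inside spanned 5917742 to 5917969, with a q-value of 2.69e-04, and the last peak outside spanned 5867443 to 5867994, with a q-value of 3.83e-04. At the right boundary the last peak inside spanned 16543527 to 16543875, with a q-value of 0.00179, and the first outside spanned 16552989 to 16553204, with 2.79e-05. The closest of these midpoints lay 3096.5 bp from a boundary.

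Among chromosome centres, that of V took a middle place. Its 46.0 peaks per Mb were fewer than the 76.2 in the centre of II and the 52.5 in that of I. They were more than the 37.8 in the centre of IV, the 34.4 in that of X and the 30.7 in that of III. Windows of 1 Mb in the centre of V overlapped in count with those of I (44 to 64 peaks), of IV (26 to 56), of III (21 to 44) and of X (25 to 41), but not with those of II (63 to 87). The likeness of V to the pooled centres rested on II: without the centre of II the density ratio was 1.18 (interval 1.06 to 1.31) in place of 0.992 (0.896 to 1.10).

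**Figure D2:**
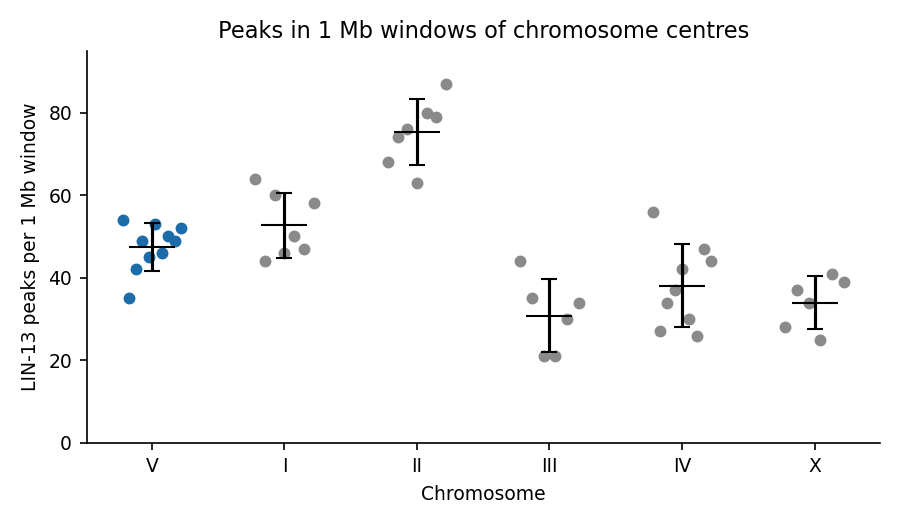
Number of LIN-13 peaks in each whole 1 Mb window (points) of the centre of each chromosome, with the mean (horizontal mark) and SD over windows (bars). V averages 47.5 ± 5.76, below all windows of II and within the range of the windows of I and IV.

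Weak peaks were sparser in the centre of V than in either arm, whereas the density of strong peaks in the centre lay between those of the 2 arms. Over the whole list, the term top-ranked stands here for the 2751 smallest q-values and lower-ranked for the rest. The centre held 23.2 top-ranked peaks per Mb, against 20.2 in the left and 29.3 in the right arm. The ratio of the centre was 1.15 to the left arm (interval 0.920 to 1.44) and 0.790 to the right arm (0.635 to 0.987). To both arms pooled, at 24.1 per Mb, it was 0.964 (0.804 to 1.15). Lower-ranked peaks stood at 22.8 per Mb in the centre, against 33.9 in the left and 54.3 in the right arm, and the ratio to both arms was 0.536 (0.456 to 0.629). Top-ranked peaks made up 50.4% of those in the centre (247 of 490, Clopper-Pearson interval 45.9 to 54.9) and 36.1% of those in the arms (246 of 681, interval 32.5 to 39.9).

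At the smallest q-values the counts were too small to set the centre apart from the arms in density, though the shares under 1e-10 differed. The centre had 71 peaks with q-values under 1e-10, or 6.66 per Mb, and the arms had 56, or 5.48 per Mb. Their shares were 14.5% in the centre (interval 11.5 to 17.9) and 8.22% in the arms (6.27 to 10.5), against 13.9% of the whole list. Under 1e-20 the centre had 22 peaks (4.49%, against 4.33% of the whole list), or 2.07 per Mb, and the arms had 12 (1.76%), or 1.17 per Mb. The density ratio to the arms was 1.22 under 1e-10 (interval 0.845 to 1.76) and 1.76 under 1e-20 (0.834 to 3.90), and both intervals include 1. Under 1e-10 the ratio was 1.36 to the left arm (0.868 to 2.17) and 1.07 to the right arm (0.677 to 1.73). At the other end, q-values from 0.001 to 0.01 were found at 18.6 peaks per Mb in the centre and 32.6 in the arms. The other 5 centres had 15.8 per Mb. Peaks of this class made up 40.4% of the centre and 48.9% of the arms, against 39.4% of the whole list and 34.1% of the other 5 centres. The shares of strong peaks in the centre of V were thus near those of the whole list, and the shares in the arms of V were below them. In the centres of the other 5 chromosomes 56.02% of peaks were top-ranked (interval 53.6 to 58.4), with single centres between 53.5% on II and 60.6% on III. The share in the centre of V was thus the lowest among the centres, though its interval overlapped that of each other centre. In the other 5 centres together, the densities were 7.15 per Mb under 1e-10 and 2.34 per Mb under 1e-20.

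**Figure D3:**
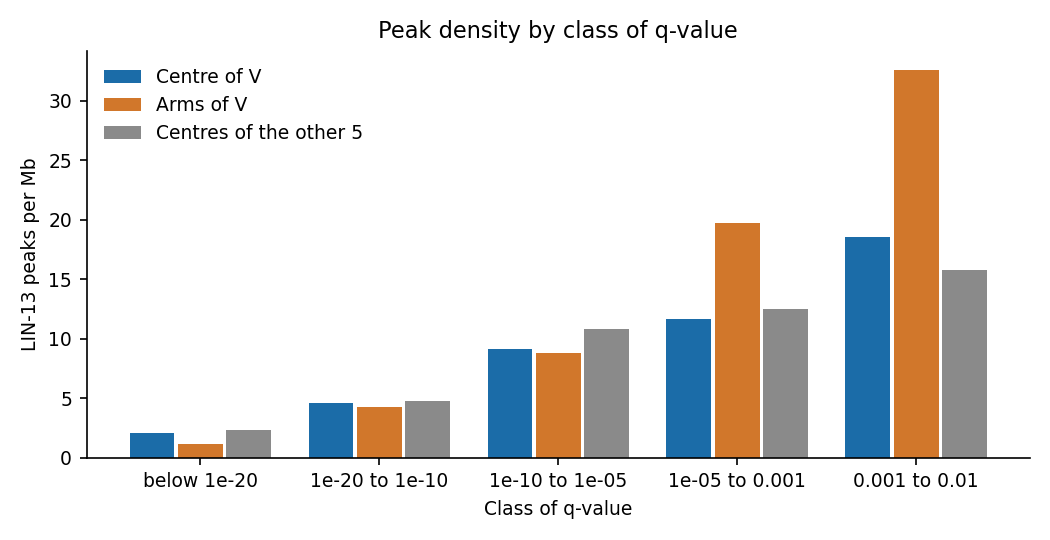
LIN-13 peaks per Mb (vertical axis) in 5 classes of q-value, from strongest to weakest (horizontal axis), for the centre of V, the arms of V and the centres of the other 5 chromosomes. The arms of V exceed the centre of V in the weakest pair of classes, with 32.6 against 18.6 per Mb in the last. In the other classes the centre of V is higher than the arms by a smaller number of peaks per Mb. In the strongest class it has 2.07 against 1.17 per Mb, from 22 and 12 peaks.

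Width showed where the extra peaks of the arms lay. The median width in the centre of V was 323.5 bp (interval of the median 308 to 349), with quartiles of 241 and 448 bp and a range of 4 to 1666 bp. In the arms of V the median was 231 bp (215 to 249), and in the other 5 centres it was 324 bp. Peaks narrower than 200 bp numbered 71 in the centre and 272 in the arms, or 6.66 and 26.6 per Mb. The other 5 centres had 6.90 per Mb. Peaks of 200 bp or more stood at 39.3 per Mb in the centre and 40.0 in the arms (37.3 in the left and 43.7 in the right arm). Without peaks narrower than 200 bp, a limit chosen after the values were seen, the density ratio of centre to arms was 0.983 (interval 0.856 to 1.13).

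The narrowest peaks followed the same pattern. Peaks under 100 bp wide made up 5.51% of the centre (27 of 490, against 8.91% of the whole list) and 16.2% of the arms (110 of 681). The share was 11.9% in the left and 19.9% in the right arm. It was 4.99% in the other 5 centres together, near that of the centre of V. Only 1 of the 27 in the centre of V was top-ranked. The 3 narrowest peaks of the centre were 4, 6 and 9 bp wide and began at 8038624, 9505314 and 9329836, with q-values of 0.00293, 0.00619 and 0.00832. A width is the stretch that the caller reported and not the size of a bound site.

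Peaks of 1 kb or more numbered 9 in the centre of V, or 0.845 per Mb. Their share of its peaks was 1.84%, with an interval of 0.843 to 3.46 that includes the 2.69% of the whole list. The arms of V held 11 (1.62%), or 1.08 per Mb. The other 5 centres held 56 (3.32%), with densities between 0.756 per Mb on III and 1.96 per Mb on II. The widest of the centre of V spanned 13788708 to 13790373 and measured 1666 bp, at a q-value of 4.44e-19. Next were the peaks at 9545938 (1540 bp), 10716419 (1474 bp), 15084476 (1275 bp) and 16041832 (1270 bp). Those at 10716419 and 15084476 ranked only 55 and 66 in the centre by q-value, at 3.24e-12 and 5.05e-11. For the 490 peaks, width and −log10 q-value had a Spearman's rho of 0.46, and in the arms of V it was 0.57. Both values describe this list, in which wide peaks hold more reads.

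**Figure D4:**
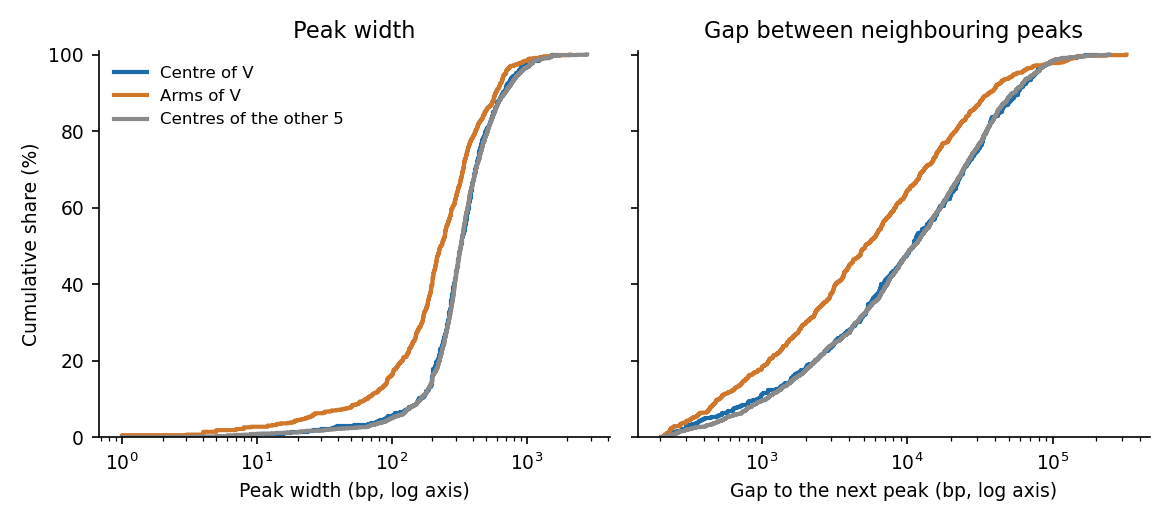
Cumulative share of peaks by width (left, bp on a log axis) and of gaps between neighbouring peaks (right, bp on a log axis) for the centre of V, the arms of V and the centres of the other 5 chromosomes. The curves of the centre of V and of the other centres pooled nearly coincide, with median widths of 323.5 and 324 bp. The arms of V lie to the left over most of both panels, but not at the upper ends. The largest width was 2100 bp in the arms and 1666 bp in the centre of V, and the longest gaps were 321746 and 202022 bp.

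Peaks in the centre of V stood farther apart than those in its arms. The gap from the end of a peak to the start of the next had a median of 10999 bp (interval 8952 to 13087), against 5155 bp (4239 to 6315) in the arms of V. In the other 5 centres together it was 11054 bp, but the single centres differed widely, at 6958 bp on II, 9315 on I, 16127 on IV, 17499 on X and 20776 on III. The middle 50% of gaps ran from 3206 to 30445 bp. A neighbour whose midpoint was within 2 kb was found for 132 peaks (26.9%, interval 23.1 to 31.1), against 32.8% of the whole list and 45.4% in the arms of V. Gaps under 500 bp numbered 27 of 489 in the centre (5.52%, interval 3.67 to 7.93) and 67 of 679 in the arms (9.87%). They made up 6.60% of gaps over the whole list, which lies within the interval of the centre, and 4.11% in the other 5 centres.

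The longest stretch of the centre without a peak ran over 202 kb, from 7263510 to 7465531. It lies in the window from 6897000 to 7896999, which had the fewest peaks (35) among the 10 whole windows laid from the left boundary. The last Mb inside the right boundary had fewer, with 29. The next 2 were 166 kb, from 15874138 to 16040360, and 150 kb, from 8785987 to 8936175. Both ends of the 166 kb stretch were marked by strong peaks, at 15873769 with a q-value of 3.00e-25 and at 16040361 with 1.76e-47, the second strongest of the centre. Gaps over 100 kb numbered 9 of 489 in the centre of V and 15 of 679 in its arms. They numbered 27 of 1680 in the other 5 centres and 87 of 5496 over the whole list. A stretch without a peak had no region under the q-value limit of 0.01, and weaker binding there is not measured.

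At a scale of 100 kb the counts varied more in the centre of V than in the centres of I, III, IV and X, and less than in that of II or in the arms of V. Its 106 whole windows held a median of 4 peaks and at most 15, and 4 were empty. The variance over the mean was 1.60, against 3.73 in the left and 4.25 in the right arm of V, and 1.06 on III, 1.18 on X, 1.26 on I, 1.31 on IV and 1.69 on II in the other centres. The densest window, from 15500001 to 15600000, held 15 peaks, of which 7 were top-ranked and 1 had a q-value under 1e-10. Windows from 6000001 and from 15000001 held 11 peaks each, with 3 and 7 top-ranked.

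When neighbours less than 2 kb apart were joined, the 490 peaks formed 337 single peaks, 47 pairs, 16 groups of 3 and 2 larger groups. The share of peaks in such groups was 31.2% (interval 27.1 to 35.5), against 44.8% in the left and 52.2% in the right arm. In the other centres it was 15.8% on III, 22.9% on X, 30.0% on IV, 30.8% on I and 38.8% on II. The largest group held 6 peaks from 9543403 to 9550597. Its strongest peak, from 9545938 to 9547477, had a q-value of 3.05e-41, and the q-values of its other peaks ran from 2.62e-12 to 0.00489. The other large group held 5 peaks from 14829005 to 14835493, the strongest with a q-value of 3.33e-07. The first group thus surrounded one of the strongest sites of the centre, and the second held none of them.

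Standing alone or in a group went with little difference in the share of top-ranked peaks. Of the 337 single peaks 50.4% were top-ranked (interval 45.0 to 55.9), and of the 153 peaks in groups 50.3% (interval 42.1 to 58.5). The median width was 390 bp for grouped and 309 bp for single peaks. Neighbours less than 2 kb apart were not alike in q-value: over 88 such pairs Spearman's rho between the −log10 q-values was 0.06, and over the 401 pairs farther apart it was -0.02. These pairs share peaks with each other, so the values only describe the list.

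The strongest peak of the centre of V spanned 10341768 to 10342705, with a q-value of 4.65e-52 and rank 18 in the whole list. The second spanned 16040361 to 16041237, with a q-value of 1.76e-47 and rank 24. The third spanned 9343340 to 9344599, with 3.64e-46 and rank 28. The first lies near the middle of the centre and the second near its right end. The fourth, at 9545938, is the widest of the 20 strongest, and the fifth spanned 14685569 to 14686637 with a q-value of 1.02e-39.

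Ranks 6 to 10 in the centre were shorter peaks. They spanned 10896930 to 10897544 (q-value 4.66e-36), 11313999 to 11314476 (5.79e-36), 6100292 to 6101125 (1.15e-34), 12343583 to 12343892 (3.12e-32) and 7196470 to 7196859 (2.68e-31). Ranks 11 to 15 began at 10965502, 11979859, 8534836, 15002118 and 10807868, with q-values between 5.04e-28 and 2.68e-25. Ranks 16 to 20 began at 15873769, 6267437, 6227342, 16041832 and 8500357, with q-values between 3.00e-25 and 8.07e-23. Of the 20 strongest, 10 were under 500 bp wide, the median width was 546.5 bp, and 7 had a neighbour within 2 kb. They were spread over the centre, with 7 in its left, 8 in its middle and 5 in its right stretch of 3.551 Mb.

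The peaks at 16040361 and 16041832 are neighbours, 594 bp apart, and both are among the 20 strongest. No other pair of the 20 lay within 2 kb of each other. Against the whole list, the centre of V held 0 of the 10 strongest peaks, 10 of the 100 strongest (interval 4.90 to 17.6%) and 46 of the 500 strongest (9.20%, interval 6.81 to 12.1). The arms of V held 8 and 29 of the last 2 sets. The share of the centre among the strongest peaks was therefore near its 8.91% of all peaks.

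The q-values also carry read numbers. Each q-value, multiplied by its rank in the deposited order, equalled 26301 times the upper tail of a fair binomial for whole read numbers, within 1e-11 on the natural log scale, in 5502 of 5502 peaks, and in 0 peaks when 26301 was changed by 1 either way. A single pair of numbers was implied for 5501 peaks, all 490 of the centre of V among them. Of the pair, the larger was taken as ChIP reads and the smaller as scaled input reads. How the input was scaled is not given in the sources used here, and the scale may differ between chromosomes, so ratios are compared mainly within V.

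On this reading the median peak in the centre of V had 75 ChIP reads and 29 scaled input reads. The ratio of ChIP to input had a median of 2.60 (interval 2.47 to 2.67), with quartiles of 2.13 and 3.33. In the arms of V the medians were 51 ChIP reads, 18 input reads and a ratio of 2.83 (2.75 to 2.96). The left arm, at 2.63 (2.52 to 2.75), overlapped the centre, and the right arm was at 3.00 (2.92 to 3.16). A peak of few reads passes the q-value limit only at a high ratio, and peaks under 100 bp had a median ratio of 3.38 in the centre and 3.69 in the arms. Among peaks of 200 to 399 bp the median ratio was 2.61 (2.42 to 2.71) in the centre and 2.56 (2.45 to 2.74) in the arms, which overlap. For all peaks of 200 bp or more it was 2.41 (2.33 to 2.55) in the centre and 2.39 (2.29 to 2.52) in the left arm. The right arm, at 2.70 (2.58 to 2.81), stayed above the centre without the narrower peaks.

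The 5 highest ratios at 100 or more reads belonged to peaks under 1 kb, a width that all but 9 of the 490 peaks had. The centre had 34 peaks at a ratio of 5 or more (6.94%, interval 4.85 to 9.56, against 6.42% of the whole list) and the arms had 56 (8.22%). The highest ratio of the centre, 29, was also the highest implied in the whole list. It rested on 1 input read and 29 ChIP reads, in a peak of 39 bp that began at 14755053. Where ChIP and input reads came to 100 or more, the highest ratio was 10.8 at 12343583, a peak of 310 bp with 173 ChIP and 16 input reads. Next were 7924204 with a ratio of 9.10 (91 against 10 reads), the strongest peak, at 10341768, with 8.71 (305 against 35), 16040361 with 8.03 (289 against 36) and 7196470 with 7.96 (191 against 24). The wide peaks at 9343340 and 9545938 had more ChIP reads, 461 and 413, but ratios of only 3.91 and 3.90. Over the 490 peaks, width and the sum of both read numbers had a Spearman's rho of 0.93, and width and the ratio one of -0.31. The median ratio was 2.65 for single peaks and 2.40 for the wider peaks in groups.

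**Figure D5:**
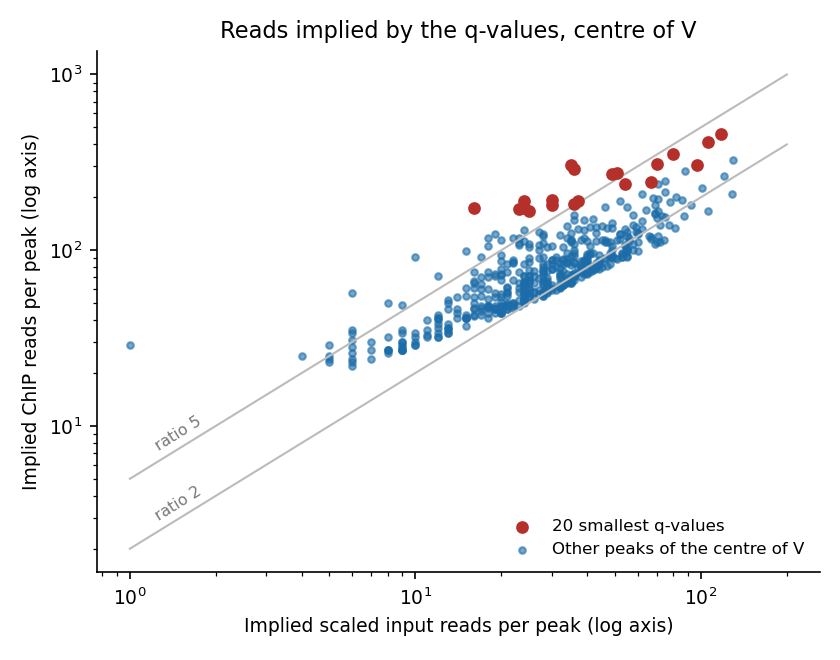
Implied ChIP reads (vertical log axis) against implied scaled input reads (horizontal log axis) for the 490 peaks of the centre of V. Red points are the 20 smallest q-values, grey lines mark ratios of 2 and 5, and the lower edge of the cloud is set by the q-value limit. The strongest peaks range in ratio from 3.14 to 10.8.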

How the data were processed

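Chromatin immunoprecipitation sequencing of embryos gave 2 ChIP and 2 input libraries. The authors deposited 1 combined peak list, whose only measurement is a q-value per peak. PeakSeq is named as caller in the list's source column, and coordinates are WormBase WS180, per the file headers. Caller version, aligner, fragment length, filters and input scaling: not given in the sources used here. Depth per library is unknown. Score and attribute gave the same q-value in 5502 of 5502 rows.

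Width is end minus start plus 1. Centres of all 6 chromosomes are the domains of a published recombination map, rounded to kb. No file used here holds that map, and whether it used WS180 positions was not checked. Arms are all else, up to the end of the last peak, which for V is 20877973. Peaks named are the 20 smallest q-values, the 5 widest, the 5 highest ratios at 100 or more reads, the 3 longest gaps, the 3 densest 100 kb windows, the largest groups and the peaks nearest the boundaries. The 3 narrowest peaks, the peak with the highest ratio at any read number, the width classes and the 200 bp limit were chosen after their values were seen. Intervals are 95% exact binomial (Clopper-Pearson), or order-statistic intervals for medians, and cover counting error only. No test was run, since replicates were combined. Members, lists and rules were chosen with earlier results of these data known. The code was tested on simulated data with known answers. Python 3.11.15, numpy 2.4.6, scipy 1.17.1 and pandas 2.3.3 were used.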

Additional observations from a re-analysis of the deposited data

How the results depend on the processing

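Of 37 recomputed values of 8 results, 25 stayed within the counting interval of the value reported and 12 left it. A reversal could be counted only for the density ratio of centre to arms, whose interval excluded 1, and 0 were counted. The density ratio of the centre to the arms of V, 0.691, was 0.805 with q-values below 0.001, 0.964 with top-ranked peaks, 0.778 without peaks narrower than 100 bp, 0.983 without those narrower than 200 bp (chosen after seeing the data) and 0.901 as covered base pairs. It was below 1 in each of these, but with top-ranked peaks and without peaks under 200 bp its interval included 1. Joined peaks, a centre of the middle 50%, arms without tips and membership by whole peaks kept it between 0.691 and 0.748. The ratio to the other centres, 0.992, was 0.893 with top-ranked peaks and 1.18 without II. It thus fell on both sides of 1, and the interval of the reported value (0.896 to 1.10) included 1. With q-values below 0.001, the median width was 369.5 bp, the median gap 18991 bp, the share with a neighbour within 2 kb 20.2% and the median implied ratio 2.90. Joining peaks under 500 bp apart gave a share of 18.1%, and it removes the closest neighbours by construction. No paired analysis was possible because the list pools replicates 1 and 2, which also kept any replicate from being left out. Depth is unknown.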
